A study of Mus musculus with 6 samples.

Results

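Cell division after the G2 phase depends on a module of genes that load cyclins onto Cdk1, build the spindle, attach chromosomes to it and separate the daughter cells. The 39 genes described here belong to this module and were fixed as a list of symbols: 7 act in mitotic entry, 3 are mitotic kinases, 3 are chromosomal passengers, 3 belong to the spindle checkpoint, 5 to the kinetochore and centromere, 8 to the spindle, 4 to cytokinesis, 4 to chromosome structure and 2 to mitotic exit. All 39 were found among the 23228 genes of the deposited table, and all 39 reached the mean level of 1 FPKM that was required for testing. FPKM counts fragments per length of transcript and per size of library, so it allows levels of genes to be compared per length.

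In dividing cells transcripts of these genes build up from S phase, peak in G2 and mitosis and are cleared in G1, and they are low in cells that rest in G0. In bone marrow, long-term stem cells rest for most of the time, while the multipotent progenitors that share their surface markers divide more often. The summed level of these transcripts in a sorted population therefore serves as a common readout of cycling. In bulk RNA a smaller share of cycling cells and less mitotic RNA per cell cannot be told apart.

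All 6 libraries came from C57BL/6 bone marrow and held donor-derived LSK cells, that is cells without lineage antigens that carry Sca-1 and c-Kit, a gate for stem cells and multipotent progenitors. The donor cells were wild type and Ly5.1+ in every library. They had been placed in Ly5.2+ recipients and sorted again after 8 weeks, with 3 libraries from wild-type and 3 from ICAM-1-/- recipients. The genotype thus belongs to the recipients, which lack the adhesion molecule ICAM-1 in all their own cells, and the study's title asks about stem cell quiescence and repopulation in such a niche. Age, sex and cell number are not given in the labels, nor is it stated whether a library holds 1 recipient or a pool, so p-values measure only the spread between these libraries. Where 3 values follow each other, they belong to replicates 1, 2 and 3 of a group of recipients, or hosts.

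The libraries were uneven. From 5845 genes (WT replicate 1) to 10864 genes (ICAM-1-/- replicate 3) stood at 1 FPKM or more, and genes that every cell uses, such as Gapdh, were listed at 0 in WT replicate 1, so a 0 is reported only as listed at 0. Read depth is unknown, since FPKM values carry no counts. Icam1 transcripts were present in every library, at 7.97 to 26.4 FPKM in WT and 10.9 to 32.1 FPKM in ICAM-1-/- recipients. Since the donor cells were wild type, this does not check the genotype of the recipients. Of 10 markers of LSK cells, 5 were listed at 0 in WT replicate 1, 2 in ICAM-1-/- replicate 1 and none in the other 4 libraries. Kit, which encodes c-Kit, stood at 10.2, 24.2 and 28.7 FPKM among WT hosts and 6.88, 16.2 and 44.7 FPKM among ICAM-1-/- hosts. Ly6a, which encodes Sca-1, was listed at 0 in WT replicate 1 and ranged from 12.4 to 91.8 FPKM elsewhere. Among markers of other cells, the 6 macrophage genes found summed to 20.2 to 1740 FPKM in WT and 19.2 to 732 FPKM in ICAM-1-/- recipients, with the top value of each group in its replicate 1 library, and none was listed at 0. The 8 neutrophil genes summed to 1123 to 4149 FPKM in WT and 877 to 5053 FPKM in ICAM-1-/- recipients, with 4 at 0 in ICAM-1-/- replicate 1. In that library Mpo, Elane and Prtn3 made up most of the sum, at 2326, 1799 and 793 FPKM. The 8 genes thus did not move together, and their sum is not a measure of neutrophil content. The 10 erythroid genes found summed to 52.8 to 383 FPKM and 19.8 to 167 FPKM, with 7 at 0 in WT replicate 1. There Hbb-b2 made up nearly all of the sum, at 379 FPKM, and in ICAM-1-/- replicate 3 Car1 made up most of it, at 111 FPKM. The 6 B cell genes summed to 38.8 to 231 FPKM and 49.1 to 76.5 FPKM, with 5 at 0 in WT replicate 1. The 6 T and NK cell genes, of which 1 to 4 were at 0 in every library but ICAM-1-/- replicate 3, summed to 0.0634 to 142 FPKM and 50.1 to 196 FPKM. Nkg7 made up nearly all of this sum except in WT replicate 1, where it was listed at 0. Cd4, Cd3d and Cd3e stood at 1.99 FPKM or less in every library. The 5 megakaryocyte genes summed to 15.1 to 60.9 FPKM and 6.37 to 56.6 FPKM, with 4 at 0 in WT replicate 1, and the 6 stromal and endothelial genes to 23.3 to 49.0 FPKM and 4.38 to 31.2 FPKM, with 4 at 0 in ICAM-1-/- replicate 2. Pecam1 made up most of the stromal and endothelial sum except in WT replicate 1, where it stood at 9.59 FPKM and Col1a1 at 24.6 FPKM. The part of such cells in the levels below was not tested.

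The median level of the 39 genes was above that of all tested genes in donor LSK cells of both groups. Their median level was 7.10, 18.5 and 15.2 FPKM among WT hosts and 13.9, 5.67 and 21.7 FPKM among ICAM-1-/- hosts. WT replicate 1 and ICAM-1-/- replicate 2 were the lowest, ICAM-1-/- replicate 3 was the highest, and the groups overlapped. On the log2(FPKM + 1) scale the median level of the 39 genes exceeded that of all 10477 tested genes in every library, by 0.58, 1.20 and 1.04 in WT and by 0.70, 0.86 and 1.03 in ICAM-1-/- replicates 1 to 3. This distance averaged 0.94 ± 0.33 (SD, n = 3) in WT and 0.87 ± 0.17 (SD, n = 3) in ICAM-1-/- recipients and differed by less than the spread between libraries.

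**Figure D1:**
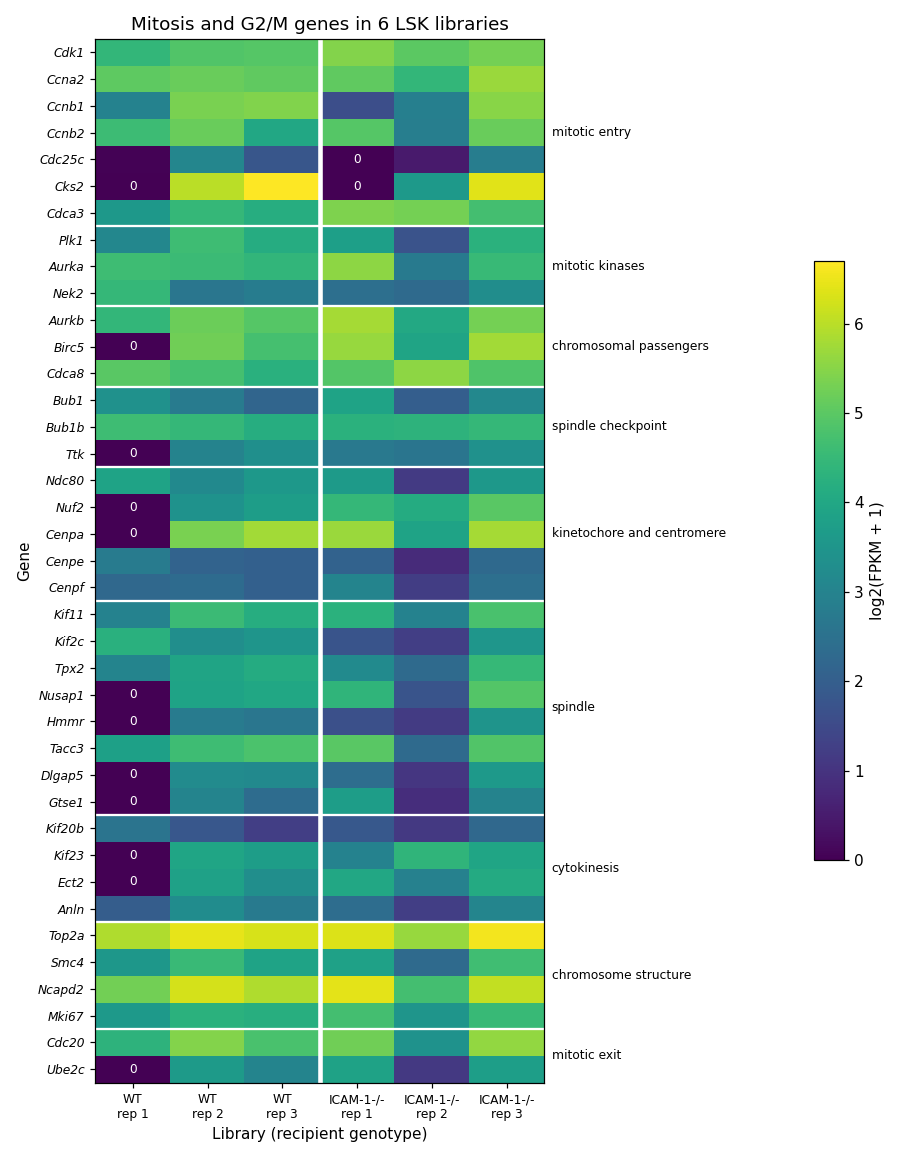
Level of each mitosis and G2/M gene (rows, grouped by role) in each library (columns), as colour on the log2(FPKM + 1) scale. A white 0 marks a value listed at 0: 12 in WT replicate 1, 2 in ICAM-1-/- replicate 1 and 0 in the other 4 libraries. Top2a, Ncapd2 and Cks2 reach the brightest colours, and ICAM-1-/- replicate 2 is darker than WT replicates 2 and 3 in most rows.

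Zeros followed single libraries. In WT replicate 1, 12 of the 39 genes (30.8%) were listed at 0, against 39.6% of all tested genes, and in ICAM-1-/- replicate 1 it was 2 genes (5.13%) against 10.7%. No gene of the module was at 0 in the other 4 libraries, where 0.735% to 10.2% of tested genes were. The 12 genes at 0 in WT replicate 1 were Cks2, Birc5, Ttk, Nuf2, Cenpa, Nusap1, Hmmr, Dlgap5, Gtse1, Kif23, Ect2 and Ube2c. Their median transcript length of 3102.5 bases was close to that of the other 27 genes, 3227 bases, and their median level over WT replicates 2 and 3 was 10.98 FPKM, against 19.0 FPKM for the others. Since a 0 in WT replicate 1 lowers the WT mean, it pushes the difference between groups up by construction. The difference was positive for 11 of these 12 genes (91.7%) and for 8 of the other 27 (29.6%), and for 82.2% and 35.1% of all tested genes split in the same way.

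Ranks within a library do not depend on its scaling. The median percentile of the 39 genes among tested genes was 56.6, 77.1 and 73.3 among WT hosts and 65.8, 65.4 and 74.3 among ICAM-1-/- hosts, which is 69.0 ± 10.9 (SD, n = 3) against 68.5 ± 4.99 (SD, n = 3). With genes at 0 left out, WT replicate 1 stood at 69.0 and ICAM-1-/- replicate 1 at 68.3. The highest ranks were thus in WT replicates 2 and 3 and ICAM-1-/- replicate 3, and the means of the groups differed by less than the spread within either of them. For 37 G1/S genes, which act in the preceding phase, the same median lay between 76.4 and 85.8, lowest in ICAM-1-/- replicate 2. For 66 other tested mitosis genes it lay between 48.0 (WT replicate 1) and 57.0 (ICAM-1-/- replicate 1). The higher rank of the 39 genes thus holds for this list and not for mitosis genes at large.

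**Figure D2:**
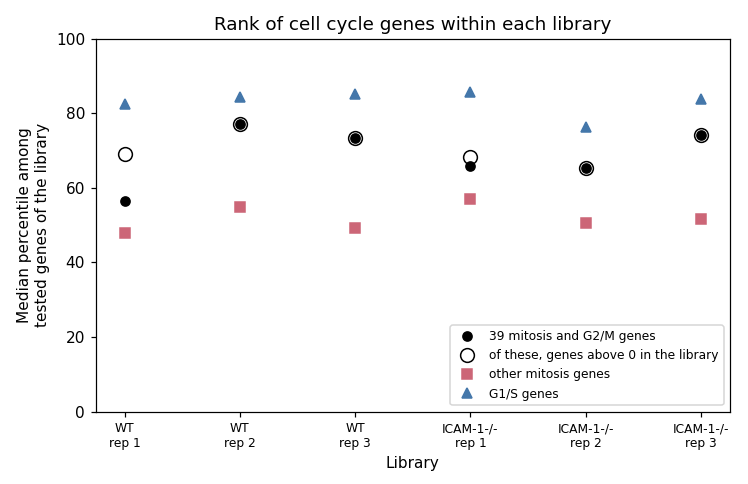
Median percentile (0 to 100) of 3 sets of cell cycle genes among all tested genes of the same library, for the 6 libraries. Filled circles are the 39 mitosis and G2/M genes, open circles the same without genes at 0, squares 66 other mitosis genes and triangles 37 G1/S genes. The filled circles run from 56.6 in WT replicate 1 to 77.1 in WT replicate 2, and the ICAM-1-/- libraries lie between these ends.

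No mitosis or G2/M gene passed the test between ICAM-1-/- and WT recipients. In limma's moderated test with Benjamini-Hochberg adjustment over all genes, 0 of 39 genes had an adjusted p under 0.05, as did 0% of the 10477 tested genes. At an unadjusted p under 0.05 it was again 0 of 39, against 0.515% of tested genes. Differences between groups, on the log2(FPKM + 1) scale and with WT subtracted from ICAM-1-/-, were positive for 19 and negative for 20 genes (48.7% positive, against 53.8% of tested genes), with a median of -0.02, where the median of all tested genes was 0.08. Their standard errors ranged from 0.67 to 1.84 with a median of 0.88, close to the 0.94 of all genes. Every 95% interval contained 0, and the intervals were wide even for evenly expressed genes, such as -1.49 to 1.44 for Top2a. With the replicate number as a block 0 of 39 genes passed, against 0.124% of tested genes, and 1 gene, Nuf2, had an unadjusted p under 0.05, against 2.65%. Within replicates 2 and 3 no gene of the module had an unadjusted p under 0.05, against 1.63% of tested genes.

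The same-numbered pairs of libraries went in different directions. In pair 1 the ICAM-1-/- library was higher for 29 of 39 genes (74.4%, against 60.0% of tested genes), with a median difference of 0.92, and 0.43 over the 26 genes above 0 in both libraries. In pair 2 it was lower for 34 genes (87.2%, against 82.5%), with a median of -1.56. In pair 3 it was higher for 38 genes (97.4%, against 83.1%), with a median of 0.40. The medians of all tested genes were 0.58, -1.12 and 0.50 in the 3 pairs, so the module followed the direction of the whole library in each. ICAM-1-/- replicate 2 lay below WT replicates 2 and 3 for 33 genes (84.6%, against 77.1% of tested genes), and ICAM-1-/- replicate 3 lay above both for 31 genes (79.5%, against 69.8%). Within replicates 2 and 3, 30 of 39 differences were below 0, with a median of -0.55, where 69.7% of genes were below 0 with a median of -0.32.

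**Figure D3:**
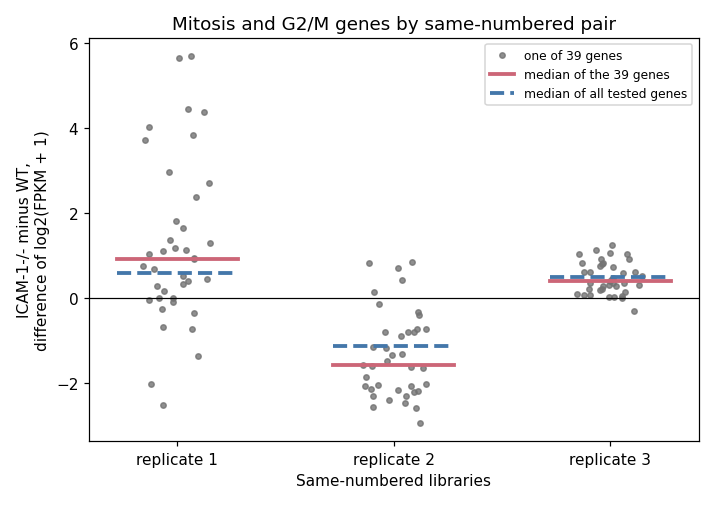
Difference of log2(FPKM + 1) between the ICAM-1-/- and the WT library of the same replicate number, 1 grey point per gene. Solid lines are medians of the 39 genes (0.92, -1.56 and 0.40) and dashed lines medians of all tested genes (0.58, -1.12 and 0.50). The cloud lies mostly above 0 in pairs 1 and 3 and mostly below 0 in pair 2.

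In 3 of 39 genes (Cdk1, Cdca3 and Nuf2) every ICAM-1-/- library was above every WT library, against 3.23% of tested genes, and in 0 genes every ICAM-1-/- library was below, against 0.849%. The ICAM-1-/- library was higher in all 3 pairs for 4 genes, the same 3 and Kif23, against 7.68% of tested genes, and lower in all 3 for 0 genes, against 4.14%. These counts depended on the scaling. Nuf2 kept its groups apart on each of 4 scales, namely FPKM as deposited, median-of-ratios scaling, rescaling without small RNA genes, and within-library percentiles. On a single scale 3.23% to 4.83% of tested genes did so in the same direction. Cdk1 and Cdca3 were apart only in FPKM as deposited. Kif2c had all its ICAM-1-/- values below all WT values on the other 3 scales, as did 1.27% to 3.44% of tested genes on a single scale. Shares of tested genes apart on several scales at once were not computed. Birc5 was apart, and higher, under median-of-ratios scaling, while Cenpe under that scaling and Anln in percentiles were apart and lower.

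**Figure D4:**
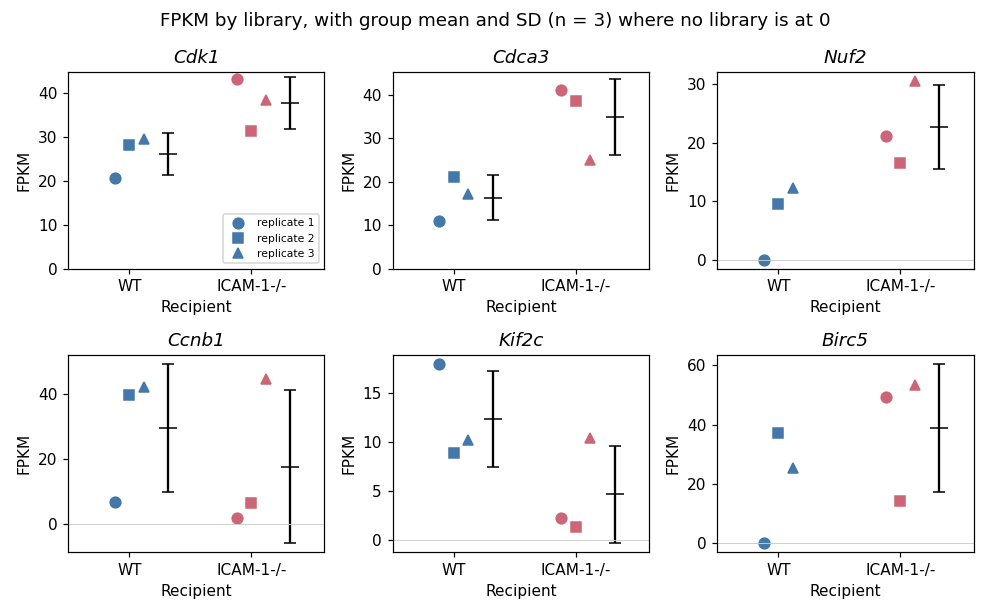
FPKM of 6 genes in each library, with circles, squares and triangles for replicates 1, 2 and 3, and mean and SD (n = 3) for groups with no value listed at 0. The groups do not overlap for Cdk1, Cdca3 and Nuf2, whereas they do for Ccnb1, Kif2c and Birc5.

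Genes of mitotic entry were not uniform. Cdk1, the kinase that starts mitosis, stood at 20.6, 28.2 and 29.5 FPKM among WT hosts and 43.2, 31.4 and 38.4 FPKM among ICAM-1-/- hosts. The groups did not overlap, but the nearest libraries were close, and the difference of 0.52 ± 0.67 (SE, 95% interval -0.95 to 1.99) did not pass (limma adjusted p = 1.00). Cdca3, which promotes the breakdown of the Cdk1 inhibitor Wee1, stood at 10.9, 21.01 and 17.1 FPKM among WT hosts and 41.1, 38.6 and 24.9 FPKM among ICAM-1-/- hosts. Here too all ICAM-1-/- libraries were above all WT libraries, with a difference of 1.06 ± 0.70 (SE, 95% interval -0.48 to 2.60) that did not pass (limma adjusted p = 1.00). Its percentile within the library was 65.2, 79.9 and 76.1 among WT hosts and 89.7, 92.5 and 77.5 among ICAM-1-/- hosts, where the groups overlapped.

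The cyclins that partner Cdk1 had other patterns. Cyclin B1 (Ccnb1), the main cyclin of mitotic entry, stood at 6.81, 39.6 and 42.0 FPKM among WT hosts and 2.05, 6.36 and 44.6 FPKM among ICAM-1-/- hosts. It was low in 3 libraries and high in 3, of both groups, with a difference of -1.24 ± 1.10 (SE). Cyclin B2 (Ccnb2) stood at 22.99, 34.6 and 15.2 FPKM among WT hosts and 29.3, 6.22 and 34.7 FPKM among ICAM-1-/- hosts, so its only clearly low library was ICAM-1-/- replicate 2. Cyclin A2 (Ccna2), which acts in S phase and G2, was the most even of the cyclins, at 33.0 ± 1.59 FPKM (SD, n = 3) in WT and 34.5 ± 15.1 FPKM (SD, n = 3) among ICAM-1-/- hosts, whose libraries spanned 20.7 to 50.6 FPKM. Its transcripts share 12.04% of their 31-base stretches with other genes in GENCODE M21, mostly its neighbour Exosc9, and those of Ccnb1 share 27.8%, mostly with the pseudogene Ccnb1-ps, so that reads of these genes may be split.

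Ratios of genes within a library are free of its scaling, and several were computed after the values had been seen. The ratio of Ccnb1 to Cdk1 was 0.331, 1.40 and 1.42 among WT hosts and 0.0474, 0.203 and 1.16 among ICAM-1-/- hosts. That of Ccnb2 to Cdk1 was 1.12, 1.23 and 0.515 among WT hosts and 0.678, 0.199 and 0.904 among ICAM-1-/- hosts. That of Ccna2 to Cdk1 was 1.55, 1.23 and 1.10 against 0.743, 0.661 and 1.32. Cyclin to kinase ratios were thus lowest in ICAM-1-/- replicates 1 or 2 for all 3 cyclins, and ICAM-1-/- replicate 3 lay within the WT range.

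Cks2, a small Cdk-binding subunit, had the widest spread of the module: it was listed at 0 in both replicate 1 libraries, and stood at 63.0 and 103 FPKM in WT replicates 2 and 3 and at 11.3 and 83.8 FPKM among their ICAM-1-/- counterparts. Its difference of -0.89 had the largest standard error of the 39 genes, 1.84, and 31.7% of its 31-base stretches occur in a gene model named Gm15452. Cdc25c, a phosphatase that activates Cdk1, stood at 0.0202, 7.37 and 2.46 FPKM among WT hosts and 0, 0.393 and 6.20 FPKM among ICAM-1-/- hosts. Both genes were lower in both replicate 1 libraries and in ICAM-1-/- replicate 2 than in the other 3 libraries.

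Promoters of this module share short elements that the choice of genes did not use. Transcription of late cell cycle genes is known to depend on the cell cycle homology region (CHR), bound by the DREAM and MuvB complexes, and on CCAAT boxes bound by NF-Y. RefSeq promoters on GRCm38.p6, from 250 bases before to 50 bases after a start site, were found for 33 of the 39 genes. The CHR letters TTTGAA, searched on both strands, occurred in 23 of these 33 genes (69.7%), against 20.2% of 27025 genes with a promoter and 14.3% of 7573 such genes among those tested here. The variant TTTAAA, which reads the same on both strands, occurred in 10 genes (30.3%, against 14.9% and 10.6%), and CCAAT on either strand in 25 genes (75.8%, against 41.1% and 43.6%). TTTGAA and TTTAAA cannot match the same 6 bases, but neighbouring matches may share some. A CHR of either form starting within 50 bases of the start site was present in 23 genes (69.7%, against 9.54% and 6.11%). A CHR of either form together with CCAAT was present in 22 genes (66.7%, against 12.2% and 9.16%). A match describes these letters only and is not evidence of binding.

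The promoters of 4 genes are shown as examples: Cdk1, Cdca3 and Nuf2 are the genes whose groups did not overlap in FPKM as deposited, and Ccnb1 has the opposite sign. Capitals mark CCAAT and both forms of the CHR on either strand, and the letters run 5′ to 3′ along the gene's strand. Cdk1 lies on the minus strand (chr10:69352863-69353162), with TTTGAA starting at -71 and -15 from the start site and CCAAT at -208, -80 and -48. Cdca3 lies on the plus strand (chr6:124829926-124830225), with TTTGAA at 31 and CCAAT at -104, -71 and -4. Ccnb1 lies on the minus strand (chr13:100786437-100786736), with TTTAAA at -42 and CCAAT at -99 and -67. Nuf2 lies on the minus strand (chr1:169531415-169531714) and has none of these letters in the window.
Cdk1: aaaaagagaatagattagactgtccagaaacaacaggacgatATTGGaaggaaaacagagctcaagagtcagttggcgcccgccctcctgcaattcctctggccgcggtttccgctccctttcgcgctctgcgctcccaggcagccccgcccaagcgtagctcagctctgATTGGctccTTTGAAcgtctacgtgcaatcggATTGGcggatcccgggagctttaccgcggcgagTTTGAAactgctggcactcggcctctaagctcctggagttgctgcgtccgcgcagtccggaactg
Cdca3: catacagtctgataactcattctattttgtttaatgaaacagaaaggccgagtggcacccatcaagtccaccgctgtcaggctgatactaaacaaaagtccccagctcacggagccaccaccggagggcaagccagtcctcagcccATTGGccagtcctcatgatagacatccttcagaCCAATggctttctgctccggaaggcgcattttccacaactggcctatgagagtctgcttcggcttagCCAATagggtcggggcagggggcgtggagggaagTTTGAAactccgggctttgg
Ccnb1: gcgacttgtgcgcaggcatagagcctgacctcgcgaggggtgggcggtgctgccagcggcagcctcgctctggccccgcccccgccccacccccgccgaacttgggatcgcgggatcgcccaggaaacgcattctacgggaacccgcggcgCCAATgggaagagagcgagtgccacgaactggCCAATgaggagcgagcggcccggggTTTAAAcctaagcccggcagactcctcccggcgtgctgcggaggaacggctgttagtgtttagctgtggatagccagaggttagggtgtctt
Nuf2: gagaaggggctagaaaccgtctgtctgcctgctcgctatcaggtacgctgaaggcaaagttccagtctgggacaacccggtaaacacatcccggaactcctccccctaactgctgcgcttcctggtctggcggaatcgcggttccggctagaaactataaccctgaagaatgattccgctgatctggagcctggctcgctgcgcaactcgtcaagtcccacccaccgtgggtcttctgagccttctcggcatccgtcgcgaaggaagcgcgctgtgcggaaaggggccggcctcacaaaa

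Of the genes that kept 1 sign of difference under every alternative tried, Cdk1, Cdca3 and Cdca8 hold TTTGAA and Nuf2 neither form. On the lower side Kif2c holds both TTTGAA and TTTAAA, and Ccnb1 holds TTTAAA. None of these differences passed, and a link to these letters was not tested. The share of all tested genes that kept 1 sign was not computed.

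Among mitotic kinases all 3 differences were negative, with a median of -0.62, and none passed (limma adjusted p = 1.00). For Aurka and Plk1 the sign rested on ICAM-1-/- replicate 2, without which the difference was 0.49 for Aurka and 0.08 for Plk1. For Nek2 the difference stayed negative with any single library left out (-0.96 to -0.04), and was 0.07 within replicates 2 and 3. Plk1, the polo-like kinase of spindle and centrosome maturation, stood at 7.54, 23.7 and 16.7 FPKM among WT hosts and 12.8, 2.26 and 18.5 FPKM among ICAM-1-/- hosts. Aurora A (Aurka), a kinase of spindle poles, stood at 23.5, 22.9 and 20.4 FPKM among WT hosts and 46.2, 5.67 and 21.7 FPKM among ICAM-1-/- hosts. WT libraries lay close together for Aurka, and the ICAM-1-/- libraries lay on both sides of them. Nek2, a kinase that splits centrosomes, was the gene whose WT replicate 1 value stood out upwards, at 21.2 FPKM, against 3.97 to 8.81 FPKM in the other 5 libraries.

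The chromosomal passengers, which correct faulty attachments and later guide cleavage, had 3 positive differences and a median of 0.45, and none passed (limma adjusted p = 1.00). Within replicates 2 and 3 the median was -0.15, with Cdca8 at 0.72, Birc5 at -0.15 and Aurkb at -0.40. Aurora B (Aurkb), their kinase, stood at 20.5, 35.6 and 29.4 FPKM among WT hosts and 54.9, 15.4 and 38.2 FPKM among ICAM-1-/- hosts, with the highest and the lowest library both in the ICAM-1-/- group. Survivin (Birc5) was listed at 0 in WT replicate 1 and stood at 37.1 and 25.2 FPKM in WT replicates 2 and 3, and at 49.3, 14.1 and 53.3 FPKM among ICAM-1-/- hosts. Its difference was 1.79 ± 1.27 (SE) over all 6 libraries. Borealin (Cdca8) stood at 30.5, 25.4 and 18.2 FPKM among WT hosts and 28.8, 46.0 and 28.2 FPKM among ICAM-1-/- hosts. Besides Kif23 it was the only gene of the 39 with its highest FPKM in ICAM-1-/- replicate 2, with a ratio to Aurkb of 3.00 there and 0.525 to 1.49 in the other 5 libraries.

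The spindle checkpoint holds cells until all chromosomes are attached. BubR1 (Bub1b) stood at 20.5 ± 3.34 FPKM (SD, n = 3) in WT and 19.5 ± 1.46 FPKM (SD, n = 3) among ICAM-1-/- hosts, and its highest library was 1.39 times its lowest, the smallest such ratio of the 39 genes in FPKM as deposited. This depended on the scaling: under median-of-ratios scaling the ratio was 3.36 for Bub1b and 1.78 for Cenpf, and in percentiles Bub1b spanned 73.3 to 84.6 and Top2a 94.1 to 95.4. Its difference was -0.06 ± 0.69 (SE, 95% interval -1.57 to 1.45). Bub1, the kinase that recruits the checkpoint to kinetochores, stood at 9.43, 5.84 and 3.57 FPKM among WT hosts and 13.9, 2.98 and 7.72 FPKM among ICAM-1-/- hosts, with the groups overlapping. Ttk, the checkpoint kinase Mps1, was listed at 0 in WT replicate 1 and ranged from 5.13 to 9.52 FPKM in the other 5 libraries.

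Kinetochore genes held the smallest p of the module. Nuf2, a subunit of the complex that grips microtubules, was listed at 0 in WT replicate 1 and stood at 9.59 and 12.2 FPKM in WT replicates 2 and 3. Among ICAM-1-/- hosts it reached 21.04, 16.4 and 30.5 FPKM, each above every WT library. The difference of 2.15 ± 1.04 (SE, 95% interval -0.15 to 4.44) had an unadjusted p of 0.0640 and did not pass (limma adjusted p = 1.00). The difference was smaller without the library at 0: without WT replicate 1 the difference was 0.96, and within replicates 2 and 3 it was 0.99. Its percentile within the library was 19.8, 58.2 and 67.7 among WT hosts and 76.7, 82.8 and 82.0 among ICAM-1-/- hosts, again without overlap. The 19.8 is the rank shared by all tested genes listed at 0 in WT replicate 1.

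Ndc80, which forms a dimer with Nuf2, did not share this pattern. It stood at 13.8, 7.99 and 10.8 FPKM among WT hosts and 11.5, 1.21 and 10.8 FPKM among ICAM-1-/- hosts, a difference of -0.76 ± 0.92 (SE). The ratio of Nuf2 to Ndc80 was 0, 1.20 and 1.13 among WT hosts and 1.84, 13.6 and 2.82 among ICAM-1-/- hosts, and this ratio too was chosen after the values had been seen. For the centromeric histone Cenpa the values were 0, 39.8 and 53.9 FPKM among WT hosts and 50.7, 13.8 and 54.9 FPKM among ICAM-1-/- hosts, so that the low libraries were WT replicate 1 and ICAM-1-/- replicate 2. The large kinetochore proteins Cenpe and Cenpf were low throughout, at 0.765 to 5.88 FPKM and 1.31 to 7.11 FPKM.

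Spindle genes had differences from -1.52 for Kif2c to 1.05 for Nusap1, with a median of 0.16 over 8 genes and of -0.69 within replicates 2 and 3. Kif2c, a kinesin that takes microtubules apart at centromeres, had the lowest difference of the module. It stood at 17.97, 8.91 and 10.2 FPKM among WT hosts and 2.33, 1.38 and 10.4 FPKM among ICAM-1-/- hosts, where replicate 3 reached the WT level and the other libraries did not. The difference of -1.52 ± 0.91 (SE, 95% interval -3.51 to 0.48) did not pass (limma adjusted p = 1.00) and was -1.02 within replicates 2 and 3. Kif11, the kinesin that pushes spindle poles apart, stood at 6.90, 22.7 and 17.0 FPKM among WT hosts and 18.4, 6.88 and 26.5 FPKM among ICAM-1-/- hosts. Of all 39 genes Kif11 followed the mean of the other 38 most closely over the 6 libraries (r = 0.99), and its r with the median of all tested genes was 0.94.

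Tpx2, which activates Aurora A on the spindle, stood at 7.10, 14.0 and 16.5 FPKM among WT hosts and 8.14, 3.94 and 21.4 FPKM among ICAM-1-/- hosts. Tacc3, which stabilises spindle fibres, stood at 13.0, 23.5 and 26.7 FPKM among WT hosts and 30.6, 4.01 and 28.6 FPKM among ICAM-1-/- hosts. For both, ICAM-1-/- replicate 2 was the lowest library. The microtubule-binding genes Nusap1, Hmmr, Dlgap5 and Gtse1 were all listed at 0 in WT replicate 1 and all had their lowest remaining value in ICAM-1-/- replicate 2, at 2.34, 1.22, 1.07 and 0.835 FPKM. Their differences of 1.05, 0.28, 0.21 and 0.74 turned to -0.62, -0.40, -0.87 and -0.76 within replicates 2 and 3.

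In cytokinesis the difference was 1.20 ± 1.12 (SE) for Kif23, a motor of the midzone, and 1.31 ± 1.09 (SE) for Ect2, which activates the small GTPase RhoA at the cleavage site. Both were listed at 0 in WT replicate 1. Kif23 stood at 14.4 and 12.2 FPKM in WT replicates 2 and 3 and at 6.77, 19.8 and 14.3 FPKM among ICAM-1-/- hosts, and Ect2 at 13.3 and 8.83 FPKM and at 15.2, 6.72 and 16.2 FPKM. Without WT replicate 1 the sign of Kif23 changed, to -0.08, and Ect2 was at 0.12. The scaffold protein Anln ranged from 1.35 to 8.56 FPKM and the kinesin Kif20b from 1.15 to 4.95 FPKM, with ICAM-1-/- replicate 2 lowest for both.

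Top2a and Ncapd2, from the group of chromosome structure, had the highest mean levels of the module. Top2a, the topoisomerase that untangles sister chromatids, stood at 58.8, 86.5 and 77.3 FPKM among WT hosts and 80.3, 49.8 and 94.1 FPKM among ICAM-1-/- hosts. Its difference was -0.02 ± 0.67 (SE, 95% interval -1.49 to 1.44). Mki67, which encodes the proliferation marker Ki-67, stood at 11.1, 18.5 and 17.4 FPKM among WT hosts and 25.1, 10.3 and 21.9 FPKM among ICAM-1-/- hosts. The mean was 15.7 ± 3.98 FPKM (SD, n = 3) against 19.1 ± 7.80 FPKM (SD, n = 3), a difference of 0.21 ± 0.74 (SE, 95% interval -1.42 to 1.84) that did not pass (limma adjusted p = 1.00). The ratio of Top2a to Mki67 ranged from 4.45 to 5.28 in WT and from 3.20 to 4.85 in ICAM-1-/- recipients.

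The condensin subunits Smc4 and Ncapd2, which compact mitotic chromosomes, had differences of -0.39 ± 0.84 and -0.08 ± 0.73 (SE). Smc4 ranged from 4.01 to 24.1 FPKM and Ncapd2 from 24.8 to 84.1 FPKM, each lowest in ICAM-1-/- replicate 2. Ncapd2 transcripts hold the sequence of the small RNA gene Scarna10, which was listed at 34654 FPKM for WT replicate 1, at 14471 FPKM for ICAM-1-/- replicate 3 and at 0 elsewhere. Ncapd2 itself was at 37.9 FPKM for the former library and 66.5 FPKM for the latter, neither of them its highest library.

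Mitotic exit is started by Cdc20, the activator of the anaphase-promoting complex, and driven by its ubiquitin-conjugating enzyme Ube2c. Cdc20 stood at 19.2, 43.2 and 26.6 FPKM among WT hosts and 37.2, 9.61 and 47.9 FPKM among ICAM-1-/- hosts, a difference of -0.10 ± 0.80 (SE). Ube2c was listed at 0 in WT replicate 1 and stood at 11.5 and 7.14 FPKM in WT replicates 2 and 3 and at 13.4, 1.15 and 12.6 FPKM among ICAM-1-/- hosts. The low libraries were again WT replicate 1 and ICAM-1-/- replicate 2. Sequence shared with other genes was 26.7% for Cdc20 and 25.3% for Ube2c, and above 10% also for Plk1 (18.7%), Cdc25c (13.3%) and Ndc80 (10.7%).

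**Figure D5:**
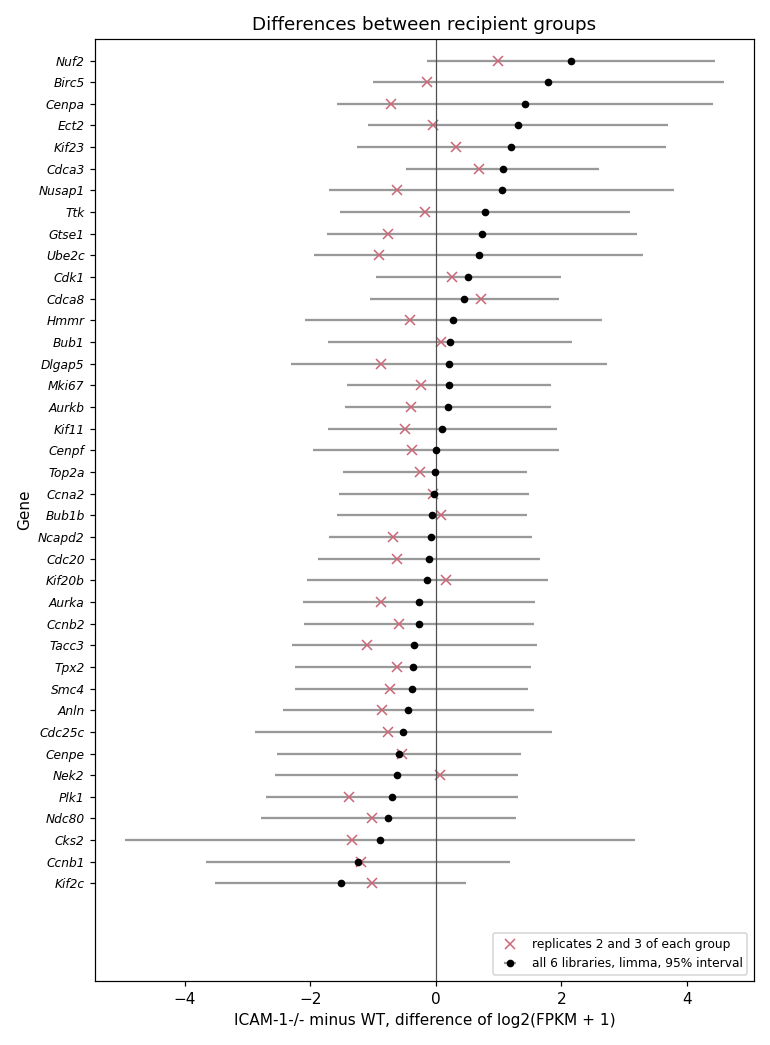
Difference between groups on the log2(FPKM + 1) scale for each gene, ordered by size. Points and bars are the limma estimate and 95% interval over all 6 libraries, and crosses are the difference within replicates 2 and 3. Every bar crosses 0, from Nuf2 at 2.15 to Kif2c at -1.52, and most crosses lie to the left of their points.

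Other genes of the pathway gave no call either. Of 66 tested genes from a list of other mitosis genes 0 passed, 40 having positive and 26 negative differences, with a median of 0.27 and of -0.48 within replicates 2 and 3. The smallest p among them belonged to Pttg1, the securin that guards separase, with a difference of 1.54 ± 1.02 (SE), the centromere gene Cenpc1 with -1.36 ± 0.92, Cks1b, a relative of Cks2, with 2.06 ± 1.43, and Cenpp with 1.38 ± 1.01. All but Cenpc1 were listed at 0 in WT replicate 1. None of 13 subunits and activators of the anaphase-promoting complex passed (median 0.27, and -0.12 within replicates 2 and 3), the lowest p being that of its G1 activator Fzr1, at 1.52 ± 1.18 (SE). Among 20 regulators of G2/M transcription 0 passed, with 13 positive and 7 negative differences and a median of 0.34, which was -0.35 within replicates 2 and 3. Foxm1 and Mybl2 are named for their role and not for their p. Foxm1, a forkhead activator of late cell cycle genes, was listed at 0 in WT replicate 1 and stood at 7.49 and 6.23 FPKM in WT replicates 2 and 3 and at 12.4, 1.18 and 9.12 FPKM among ICAM-1-/- hosts, with the same low libraries as Cenpa and Ube2c. Mybl2, the B-Myb partner of the MuvB complex, stood at 0, 13.3 and 7.03 FPKM and at 7.76, 3.31 and 13.3 FPKM. Among 37 G1/S genes 0 passed, with a median of 0.08 and of -0.30 within replicates 2 and 3. For all tested genes 53.8% of differences were positive, with a median of 0.08 and of -0.32 within replicates 2 and 3. Listed at 0 in WT replicate 1 were 29 of the 67 other mitosis genes found and 4 of the 13 subunits and activators. The same held for 7 of the 20 regulators and 9 of the 37 G1/S genes. Such zeros push the differences of these lists up by construction.

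Over the 6 libraries many genes of the module followed the level of the library as a whole. For 22 of 39 genes the level correlated at above 0.7 with the mean of the other 38 (median r = 0.78). For 21 it did so with the median of all tested genes (median r = 0.73), as a description over 6 libraries. The share of all tested genes with such a correlation was not computed. Correlations with the mean of the other 38 below 0 were those of Cdca8, Nek2, Bub1b and Kif20b, at -0.61, -0.39, -0.31 and -0.02. Nek2, Bub1b and Kif20b were highest in WT replicate 1, and Cdca8 was highest in ICAM-1-/- replicate 2.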

How the data were processed

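RNA from 6 sorted LSK samples (3 per recipient genotype) was sequenced, and the authors deposited FPKM values for 23228 genes, with no counts, so depth is unknown and its precision cannot be given. Per the submitters' processing notes, cutadapt, TopHat, TopHat2 2.0.11 and Cufflinks 2.1.1 were used; build and filters: not given in the sources used here. FPKM depends on the total of each library, so a few abundant small RNA genes shift all other values. Groups came from the labels' genotype.

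The 10477 genes whose mean reached 1 FPKM were tested as log2(FPKM + 1) with limma 3.58.1 in R 4.3.3 (group only, mean-variance trend, Benjamini-Hochberg threshold 0.05, 95% intervals). This scale understates changes of low genes. The script was tested on simulated data. The members and gene lists were chosen with earlier results of these data known. All 39 members could be named, and of other lists up to 4 genes of smallest p, or genes named for their role. No 2 libraries were duplicates: at most 1 gene above 0 in both had identical values.

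Replicate numbers are shared between groups. Same-numbered libraries deviated together from their group means (r = 0.35, 0.13 and 0.31 for replicates 1, 2 and 3). The numbers were therefore taken to pair the libraries in the pair comparisons and the block fit, but not in the main fit. This pairing is inferred from the data. WT replicate 2 with ICAM-1-/- replicate 3 also gave 0.31, and WT replicate 3 with ICAM-1-/- replicate 2 gave 0.15, so numbers 2 and 3 are not told apart. Alternatives were pseudocounts of 0.1 and 0.5 FPKM, other filters and scalings, no trend, library weights, the replicate block, a term for the replicate 1 libraries, replicates 2 and 3 alone, and leaving out each library. Shared sequence was counted as 31-base stretches of GENCODE M21 transcripts found in another gene. Promoters are RefSeq sequences on GRCm38.p6.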

Additional observations from a re-analysis of the deposited data

How the results depend on the processing

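None of the 39 genes passed under any of the 18 alternatives (lowest adjusted p 0.919). The number of genes called among all tested was 0, but 4 with library weights, 13 with the replicate block, 1 with a term for the replicate 1 libraries, 18 within replicates 2 and 3, and 0 to 2 with 1 library left out; the cause was not tested. In the block fit and within replicates 2 and 3 limma estimated no spread of variances between genes. The block changed no call of the 39 genes. The median difference of the 39 genes, -0.02, ranged from -0.55 within replicates 2 and 3 to 0.51 without ICAM-1-/- replicate 2, and was -0.27 without WT replicate 1. All tested genes moved alike, with medians of -0.32, 0.47 and -0.16 under these settings and 0.08 in the main fit. Under the remaining alternatives their median lay between -0.20 (without ICAM-1-/- replicate 3) and 0.28 (library weights). Positive differences numbered 19 of 39 (all genes 53.8%), but 25 under median-of-ratios scaling (62.6%), 32 with library weights (75.2%), 32 without ICAM-1-/- replicate 2 (72.5%), 10 without WT replicate 1 (38.3%) and 9 within replicates 2 and 3 (30.3%). Median-of-ratios scaling moved the median of all genes to 0.25. Of 696 differences of single genes under alternatives 87 had the other sign. Cdk1, Cdca3, Cdca8 and Nuf2 stayed above 0 and Ccnb1 and Kif2c below 0 under every alternative. That is 6 of 39 genes, and the share of all tested genes that kept their sign was not computed. Some alternatives left the differences of these genes unchanged, so that no sign could turn there. These were the filters, the fit without trend, the replicate block, the replicate 1 term and near-zero values taken as missing. With 3 libraries per group and unknown depth, moderate changes of single genes were not detectable.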
